A study of Mus musculus with 2 samples.

Results

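The cells described here are Krt15-high basal keratinocytes of mouse skin tumours, read one cell at a time by droplet RNA sequencing. A barcode was a member when it held at least 500 genes, at most 15% mitochondrial UMIs, at least 5000 UMIs and under 10% Gm42418, an RNA that overlaps ribosomal RNA. It also needed at least 80 Krt5 and Krt14 UMIs and at least 10 Krt15 UMIs per 10000, with Lor and Cck each under 5 per 10000. A UMI is a count of 1 captured RNA molecule. By this rule 807 of 30298 barcodes were members, 88 in the Eed iKO-D library and 719 in the Ctrl-D library. The members were thus selected on measured values, those of Krt5, Krt14, Krt15, Lor, Cck and Gm42418, and the levels of these genes are given as a description.

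The study compared DMBA-treated dorsal skin of 5-month-old mice in 2 libraries. Eed iKO-D came from K14CrERT2;Eed flox/flox mice given hydroxyl-tamoxifen and then DMBA, and Ctrl-D from Eed flox/flox mice without Cre given ethanol and then DMBA. Hydroxyl-tamoxifen or ethanol was applied for 4 days from postnatal day 50, and DMBA, a carcinogen that mutates Ras genes, weekly for up to 20 weeks, so both groups carry the floxed allele and both received the carcinogen. Genotype and hydroxyl-tamoxifen changed together, and their parts in any difference cannot be told apart. The K14 promoter limits Cre to keratin 14 cells and their progeny. How many animals were pooled per library is not given in the labels, and an enrichment for live cells preceded loading. With 1 library per group no difference below has a replicate check or a p-value, and every interval is a 95% interval that covers counting error only.

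The hair follicle keeps its stem cells in the bulge, a niche in the outer root sheath marked in mice by Krt15, Cd34, Lhx2, Sox9 and Lgr5, and Krt15 is also found in some basal cells of the upper follicle and of the interfollicular epidermis. Bulge cells are held quiescent by BMP signals and inhibitors of Wnt signalling, and give rise to the follicle in each hair cycle. Eed is a core subunit of PRC2, the complex that places the repressive H3K27me3 mark, and PRC2 is known in skin for holding genes of other lineages, Hox genes and cell cycle inhibitors silent.

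Members were 88 of 21484 kept cells in Eed iKO-D, a share of 0.410% (exact binomial interval 0.329 to 0.504%), against 719 of 7522 in Ctrl-D, 9.56% (8.90 to 10.2%). Counted among basal keratinocytes, that is cells that passed every gate other than Krt15, the shares were 88 of 2182 cells, 4.03% (3.25 to 4.95%), in Eed iKO-D and 719 of 3670 cells, 19.6% (18.3 to 20.9%), in Ctrl-D. Krt15-high cells thus made up a smaller part of both populations in Eed iKO-D. The floor of 5000 UMIs left 8136 of the kept cells in Eed iKO-D and 6206 in Ctrl-D, and of these members made up 1.08% in Eed iKO-D and 11.6% in Ctrl-D. The cut on Gm42418 also fell unequally on the libraries, since 44 cells of Eed iKO-D and 2 of Ctrl-D passed the Krt15 gate alone but failed it. The cut on Krt5 and Krt14 removed 38 such cells in Eed iKO-D and 480 in Ctrl-D.

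Members of Eed iKO-D were sequenced more deeply, with a median of 29686 UMIs and 5342 genes per cell, against 13633 UMIs and 3452 genes in Ctrl-D. Their median mitochondrial share was 3.17% in Eed iKO-D and 1.59% in Ctrl-D, and their median Gm42418 share 4.57% in Eed iKO-D and 0.304% in Ctrl-D. The summed UMIs of the members were 2671632 in Eed iKO-D and 11546463 in Ctrl-D, within library totals of 289511009 and 120500892. The libraries shared 49 barcodes, and 0 barcodes were members in both. A doublet caller marked 0 cells in Eed iKO-D and 129 in Ctrl-D, of which 10 were members, so it did not work in Eed iKO-D and no cell was removed by it. Cells with only Xist and cells with only Y-linked transcripts occurred in both libraries. Among members they numbered 16 and 17 of 88 in Eed iKO-D and 462 and 148 of 719 in Ctrl-D, while 53 and 74 members had neither. Among other basal cells they numbered 1166 and 346 of 2094 in Eed iKO-D and 1468 and 1033 of 2951 in Ctrl-D, while 292 and 287 had neither. Both kinds of transcript were found in 2 members of Eed iKO-D and 35 of Ctrl-D. Among other basal cells 290 of Eed iKO-D and 163 of Ctrl-D had both. The part of doublets and of free RNA in these cells was not tested.

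Krt15, the keratin that chose the cells, had a median of 15.2 UMIs per 10000 and a maximum of 42.4 in members of Eed iKO-D, and a median of 20.4 and a maximum of 366 in members of Ctrl-D. The cells at the threshold were numerous. Between 8 and 10 per 10000, just outside, lay 17 cells of Eed iKO-D and 122 of Ctrl-D. Between 10 and 12, just inside, lay 17 cells of Eed iKO-D and 98 of Ctrl-D. No cell of Eed iKO-D reached 50 per 10000, where Ctrl-D had 69 members between 50 and 100 and 28 above. Levels are given below as CPM, which is 100 times a gene's UMIs per 10000 UMIs of the summed cells. The basal keratins Krt5 and Krt14 stood at 5656 and 9508 CPM in members of Eed iKO-D and 5723 and 12477 CPM in those of Ctrl-D.

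The other 4 genes taken to mark these cells followed Krt15 unequally, and none of them entered the rule. Lhx2, a transcription factor that maintains follicle stem cells, had 3 UMIs in all members of Eed iKO-D and 347 UMIs in those of Ctrl-D, or 1.12 and 30.1 CPM. The ratio of Ctrl-D to Eed iKO-D was 26.8 (9.08 to 130). Ptn, the growth factor pleiotrophin, had 118 CPM in members of Eed iKO-D and 395 CPM in those of Ctrl-D, a ratio of Eed iKO-D to Ctrl-D of 0.297 (0.264 to 0.333). Aldh3a1, an aldehyde dehydrogenase, had 13.1 CPM in Eed iKO-D and 43.4 CPM in Ctrl-D. Sostdc1, a secreted inhibitor of BMP and Wnt signalling, went the other way, with 852 CPM in Eed iKO-D and 439 CPM in Ctrl-D, a ratio of 1.94 (1.84 to 2.04). With the gate on Krt5 and Krt14 raised to 160 per 10000, which left 31 cells of Eed iKO-D and 370 of Ctrl-D, its log2 ratio was 0.03 in place of 0.96. In the other basal keratinocytes, those under the Krt15 gate, Sostdc1 had 74.8 CPM in Eed iKO-D and 139 CPM in Ctrl-D. It was therefore 11.4 times as high in members as in other basal cells of Eed iKO-D and 3.17 times in Ctrl-D.

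**Figure D1:**
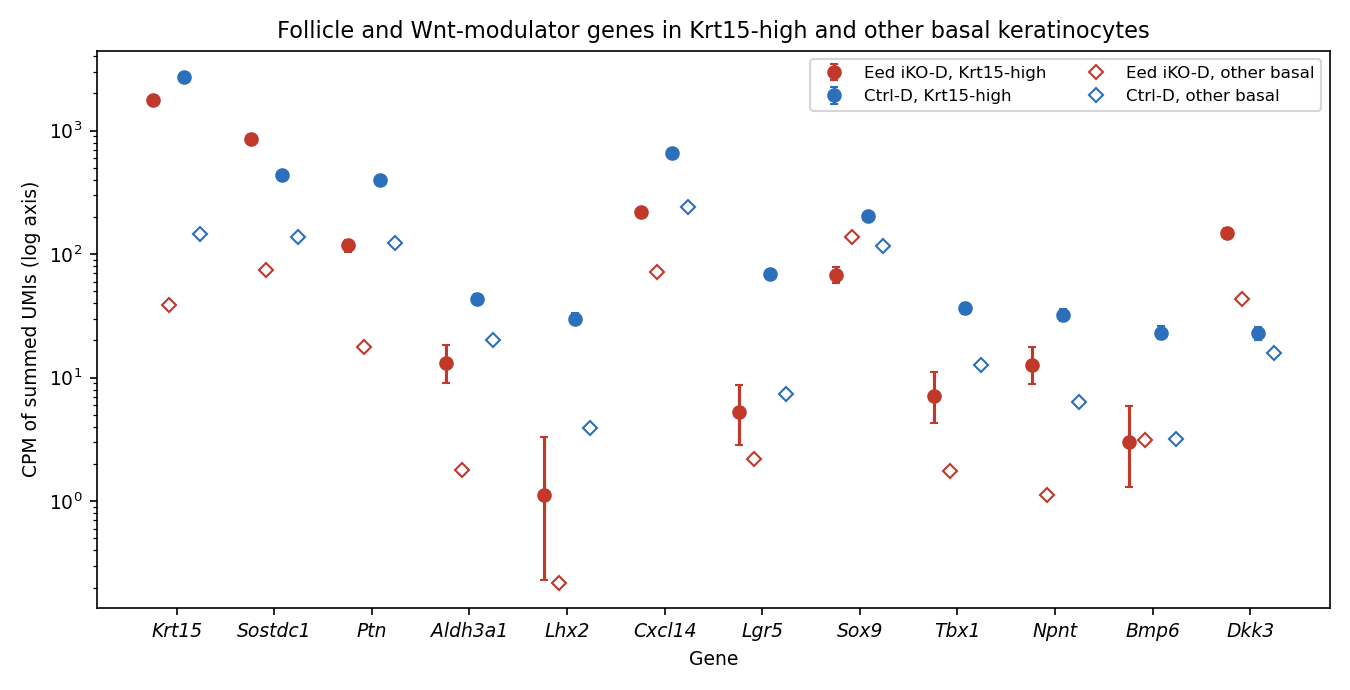
Levels of marker, follicle and Wnt-modulator genes (CPM, log axis) in Krt15-high members (filled, with 95% Poisson intervals) and in other basal keratinocytes (open) of the Eed iKO-D (red) and Ctrl-D (blue) libraries; each point is the summed level of one set of cells. Lhx2 stands at 1.12 CPM in members of Eed iKO-D and 30.1 CPM in those of Ctrl-D, and Sostdc1 at 852 and 439 CPM.

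To compare cells at one depth, each was thinned to 5000 UMIs. Sostdc1 was then detected in 73.9% of members of Eed iKO-D and 59.1% of those of Ctrl-D, and Ptn in 44.3% in Eed iKO-D and 66.6% in Ctrl-D. Lhx2 was detected in 0 of 88 members of Eed iKO-D, a share whose exact upper bound is 4.11%, and in 10.7% of members of Ctrl-D. As a measure of free RNA, cells with at least 20 UMIs of the leukocyte list per 10000, under 20 of the fibroblast list and under 20 of Krt5 and Krt14 were thinned in the same way, and fibroblast-list cells were taken by the mirrored rule. In the leukocyte-list cells Lhx2 was detected in 0% in Eed iKO-D and 2.05% in Ctrl-D, and Sostdc1 in 0.831% in Eed iKO-D and 1.54% in Ctrl-D, so the Lhx2 share of members in Ctrl-D and both Sostdc1 shares lay above that level. In the fibroblast-list cells, Lhx2 was detected in 0% in Eed iKO-D and in 7.69% (4.99 to 11.2%) in Ctrl-D, where its level was 30.4 CPM. The Lhx2 of the Ctrl-D members, at 10.7% and 30.1 CPM, was therefore not above that of the fibroblast-list cells beyond counting error. Those fibroblast-list cells held 17.3 CPM of Krt15. Whether their Lhx2 was free RNA or their own was not tested, so for Lhx2 they may not measure free RNA. Ptn had 55.4 CPM in fibroblast-list cells of Eed iKO-D and 340 CPM in those of Ctrl-D, while Sostdc1 was detected in 0.881% and 2.24% of them. The median depths before thinning were 15275 UMIs in Eed iKO-D and 7923 UMIs in Ctrl-D for the leukocyte-list cells, and 26703 and 10096 UMIs for the fibroblast-list cells. After thinning, at least 3 of the 4 markers were found together in 1 of 88 members of Eed iKO-D, whereas in Ctrl-D 90 members carried 3 and 10 carried all 4. In Ctrl-D, 3 were found in 12.5% of members, 3.96% of other basal cells and 5.23% of cells under the Krt5 and Krt14 gate. All 4 were found in 1.39%, 0.169% and 0.633% of these. The set of markers was therefore found together in a portion of the Ctrl-D members, and also in Ctrl-D cells that were not members. Of these 4 markers, Sostdc1 was found in most members of Eed iKO-D (73.9%) and Ptn in 44.3%. Against other basal cells of the same library, all 5 marker genes, Krt15 included, were at least 2-fold higher in members of each library. Their median log2 ratio was 2.89 in Eed iKO-D and 1.68 in Ctrl-D. Over all genes, 13.2% and 6.24% were at least 2-fold higher. Lhx2 had few UMIs in Eed iKO-D, as given above.

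In the mm10 build these genes lie at chr11:100131758-100135928 (Krt15, minus strand), chr2:38339281-38369733 (Lhx2, plus strand), chr6:36714929-36810220 (Ptn, minus strand), chr11:61207537-61218421 (Aldh3a1, plus strand) and chr12:36314139-36318452 (Sostdc1, plus strand). The counts are assigned to whole genes, so no exon, intron or UTR can be given for them.

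Between the libraries, 12324 genes had at least 20 UMIs over the members of both. Of these 1843 (15%) were at least 2-fold higher and 1149 (9.32%) at least 2-fold lower in members of Eed iKO-D. With a median-of-ratios scaling in place of the UMI total the split was 1215 higher and 1861 lower, and the median of all genes stood at -0.08 in place of 0.18 on the log2 scale. The follicle lists stood against this background. Among 18 measured bulge genes, Eed iKO-D stood at least 2-fold above Ctrl-D for 2 and at least 2-fold below it for 9, and the median log2 ratio was -1.21. Of 16 lower follicle and root sheath genes 1 was higher and 8 were lower, with a median of -0.79. Of 10 upper follicle genes 0 were higher and 7 were lower, with a median of -1.79. Of 5 measured sebaceous genes, which serve lipid synthesis and storage, 0 were past 2-fold in either direction.

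Among the stem cell genes, Lgr5, a Wnt-amplifying receptor of R-spondins, had 14 UMIs in 6 members of Eed iKO-D and 802 UMIs in 193 members of Ctrl-D. Its levels were 5.24 CPM in Eed iKO-D and 69.5 CPM in Ctrl-D, and 57.1% of the Eed iKO-D UMIs came from 1 cell. Wif1, a secreted Wnt inhibitor, had 0 UMIs in Eed iKO-D and 70 UMIs in Ctrl-D, which puts it at least 5.40-fold lower against a floor of 3 UMIs over the group. Bmp6, a ligand that keeps bulge cells quiescent, had 2.99 CPM in Eed iKO-D and 23.1 CPM in Ctrl-D. The transcription factors Foxc1 and Tbx1, both linked to bulge stem cell self-renewal, were also low, at 3.74 and 7.11 CPM in Eed iKO-D against 21.7 and 36.4 CPM in Ctrl-D. Sox9, the specifier of follicle stem cells, had 67.7 CPM in Eed iKO-D and 205 CPM in Ctrl-D, and the chemokine Cxcl14 had 218 and 654 CPM in the same order of libraries.

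The bulge list did not move as one. Dkk3, a secreted protein of the Dickkopf family, had 148 CPM in members of Eed iKO-D and 22.9 CPM in those of Ctrl-D, a ratio of 6.48 (5.53 to 7.60). Before thinning it was found in 78 of 88 and 185 of 719 cells, those of Eed iKO-D being the deeper. Fibroblast-list cells of Eed iKO-D held 117 CPM of Dkk3 and its leukocyte-list cells 3.50 CPM. Cd34, the surface marker of mouse bulge cells, had 43.0 CPM in Eed iKO-D and 15.3 CPM in Ctrl-D, a ratio of 2.81. Nfatc1, a factor that represses cycling in the bulge, differed little, with 31.8 CPM in Eed iKO-D and 34.7 CPM in Ctrl-D, and Postn, a matrix protein, had 738 and 638 CPM. Tcf7l2, a nuclear effector of Wnt signalling, had 153 CPM in Eed iKO-D and 95.7 CPM in Ctrl-D.

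Among lower follicle genes, Shisa2, an inhibitor of Wnt and FGF receptors, had 0 UMIs in Eed iKO-D and 218 UMIs in Ctrl-D, at least 16.8-fold lower against the same floor. Fst, the activin antagonist follistatin, had 113 CPM in members of Eed iKO-D and 559 CPM in those of Ctrl-D, a ratio of 0.202. In other basal cells Fst had 494 CPM in Eed iKO-D and 351 CPM in Ctrl-D, so that it was lower in members than in other basal cells in Eed iKO-D and higher in Ctrl-D. Krt17, a keratin of the outer root sheath and of injured epidermis, had 664 CPM in Eed iKO-D and 1596 CPM in Ctrl-D. Cdh3, the follicular P-cadherin, was the one gene of the list past 2-fold in the other direction, with 143 CPM in Eed iKO-D and 69.9 CPM in Ctrl-D. The Hedgehog pathway genes Ptch1 and Gli2 had 20.2 and 41.2 CPM in Eed iKO-D and 24.3 and 28.4 CPM in Ctrl-D.

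Most upper follicle genes had few or 0 UMIs in members of Eed iKO-D, with Plet1, a surface marker of the junctional zone, an exception at 144 CPM in Eed iKO-D and 97.8 CPM in Ctrl-D. In other basal cells the list also summed lower in Eed iKO-D, at 1358 CPM against 3102 CPM in Ctrl-D. The bulge list summed to 645 and 1028 CPM there. For members over other basal cells, the upper follicle median log2 ratio was -2.20 in Eed iKO-D and -0.25 in Ctrl-D. Over all genes it was -0.04 and 0.12. Krt79, a keratin of the infundibulum and sebaceous duct, had 2 UMIs in Eed iKO-D and 3701 UMIs in 116 members of Ctrl-D, a Ctrl-D to Eed iKO-D ratio of 428 (118 to 3537). Defb6, a beta-defensin, had 0 UMIs in Eed iKO-D and 1556 UMIs in Ctrl-D, at least 120-fold lower against the floor. Cst6, an inhibitor of cysteine proteases, had 4 UMIs in Eed iKO-D and 2741 UMIs (237 CPM) in Ctrl-D, where 1 cell carried 66.2% of them and the level without that cell was 80.5 CPM. The stem cell receptor Lgr6 had 5.99 CPM in Eed iKO-D and 30.5 CPM in Ctrl-D, and Lrig1, a negative regulator of EGF receptors that marks junctional zone stem cells, had 28.1 and 58.5 CPM.

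Within Ctrl-D, Lhx2, Lgr5, Ptn, Sox9, Cxcl14 and Aldh3a1 were higher in cells with more Krt15, the gene that the rule used. Some other follicle genes were not. In Ctrl-D members with 10 to 20, 20 to 50, 50 to 100 and over 100 Krt15 UMIs per 10000, which numbered 349, 273, 69 and 28 cells, Lhx2 stood at 15.6, 34.8, 88.4 and 106 CPM. Lgr5 stood at 37.0, 61.2, 271 and 321 CPM and Ptn at 291, 406, 817 and 1305 CPM in the same bins. Sox9 stood at 165, 193, 382 and 762 CPM and Cxcl14 at 495, 596, 1613 and 2220 CPM. Aldh3a1 stood at 41.1, 43.9, 49.6 and 69.2 CPM and Cd34 at 11.8, 11.2, 43.6 and 72.9 CPM. Krt79 stood at 462, 127, 351 and 65.6 CPM, Sostdc1 at 368, 552, 435 and 306 CPM and Krt17 at 1673, 1468, 1699 and 1553 CPM, with no such order. The bins also became shallower, with median depths of 15093, 13295, 9852 and 8759 UMIs, and the part of depth in this trend was not tested. Members of Eed iKO-D filled the lower 2 bins only, with 64 and 24 cells, and Lhx2 stood at 0 and 4.21 CPM and Sostdc1 at 860 and 830 CPM there. At the same Krt15 level of 20 to 50 per 10000, Lhx2 was thus 4.21 CPM in 24 cells of Eed iKO-D and 34.8 CPM in 273 cells of Ctrl-D.

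**Figure D2:**
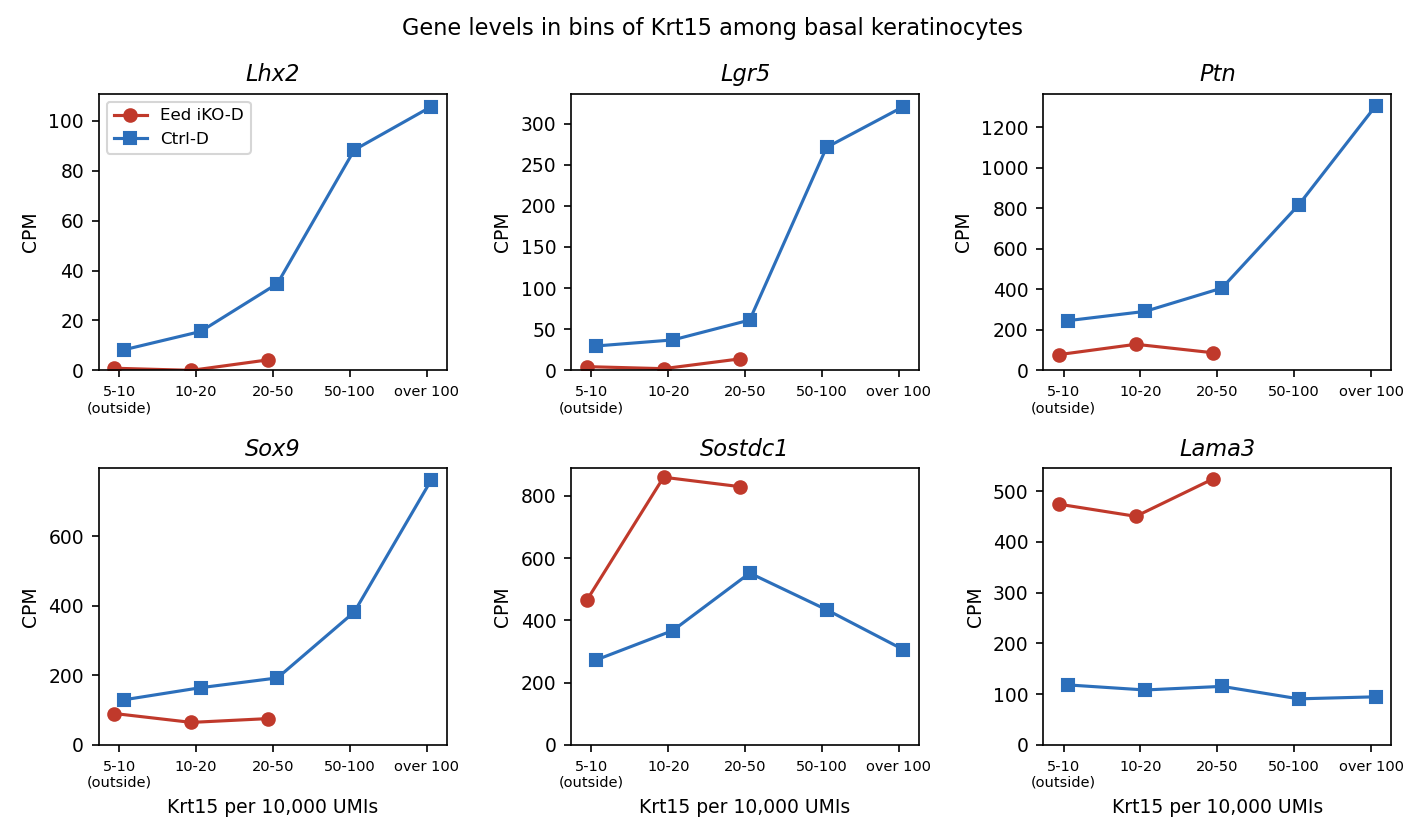
Levels of follicle genes (CPM) by the cells' Krt15 level (UMIs per 10000), for Eed iKO-D and Ctrl-D, with the bin just under the gate included; points are summed levels of the cells of a bin and no error is drawn. Lhx2 in Ctrl-D climbs over the bins to 106 CPM, Eed iKO-D has no cell at or over 50 Krt15 per 10000, and Lama3 stands higher in Eed iKO-D in each bin that both libraries fill.

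Within each library the members were set against the other basal keratinocytes, 2094 cells in Eed iKO-D and 2951 in Ctrl-D. These other cells were deeper, with medians of 54814 UMIs in Eed iKO-D and 19424 UMIs in Ctrl-D. Members had medians of 29686 and 13633 UMIs. In Eed iKO-D the median Gm42418 share was 4.57% in members and 2.44% in other basal cells. The part of depth and of Gm42418 in these contrasts was not tested. At least 20 UMIs were found for 18209 genes in Eed iKO-D, of which 2397 (13.2%) were at least 2-fold higher and 2519 (13.8%) at least 2-fold lower in members. In Ctrl-D 15567 genes reached that count, with 971 (6.24%) higher and 990 (6.36%) lower. Of 15284 genes measured in both, 301 (1.97%) were higher in members in both libraries and 492 (3.22%) lower in both, and 255 (1.67%) were past 2-fold in opposite directions. The libraries share no cells, and these counts carry no test.

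The genes named as highest in members of both libraries, after Krt15 and Sostdc1, had varied functions. Ptn was 6.64 times as high in members as in other basal cells in Eed iKO-D and 3.20 times in Ctrl-D. Tslp, an epithelial cytokine that drives type 2 inflammation, was 4.97 and 2.24 times as high in the same order, and Cxcl14 3.01 and 2.73 times. Txnip, an inhibitor of thioredoxin and of glucose uptake, was 6.83 times as high in Eed iKO-D and 2.21 times in Ctrl-D. The transcription factor Nfib, which restrains differentiation of follicle stem cells, was 2.11 and 2.20 times as high, and the zinc finger gene Bnc2 3.02 and 2.78 times. Enox1, a cell surface oxidase, was 9.73 and 4.17 times, Dapl1 7.75 and 2.36 times, the taurine transporter gene Slc6a6 3.80 and 2.10 times, and the p53 target Trp53inp1 3.56 and 2.54 times as high.

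The 8 genes named as lowest in members of both libraries included keratins and cornified envelope genes. Krt6b, a keratin of wounded skin, was 20.7 times as high in other basal cells as in members of Eed iKO-D and 23.3 times in Ctrl-D. Krt16, which pairs with it, was 9.03 and 5.78 times as high there. The connexin gene Gjb2 was 13.6 and 12.2 times, and the cornified envelope precursors Sprr1a and Sprr1b were 12.4 and 8.77 times in Eed iKO-D and 12.0 and 16.3 times in Ctrl-D. Krt10, the first keratin of differentiating cells, was 8.63 and 5.34 times and the retinoid-binding gene Crabp2 10.0 and 6.88 times as high outside the members. Fabp4, a fatty acid carrier, was 5.53 times as high in other basal cells as in members of Eed iKO-D and 94.0 times in Ctrl-D. Of 12 wound and stress genes measured in each library, 2 were higher and 8 lower in members of Eed iKO-D, and 0 higher and 8 lower in those of Ctrl-D. Krt6, Krt16, Krt17, Sprr and stefin genes have near copies, so their single levels are uncertain where reads could be split.

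Stfa3, a stefin of inflamed keratinocytes, was one of the wound genes that did not follow this order in Eed iKO-D. It had 4189 CPM in members of Eed iKO-D, 5.21 times its level in other basal cells, and 3785 CPM in members of Ctrl-D, 0.701 times its level in other basal cells. The bulge list had 8 of 18 genes higher and 5 lower in members of Eed iKO-D (median log2 0.85), and 11 of 18 higher and 0 lower in those of Ctrl-D (median 1.49). For the MHC class I and interferon list, 8 of 22 genes were higher and 1 lower in Eed iKO-D (median 0.73), and 0 of 21 were past 2-fold in Ctrl-D (median 0.44). Over all genes the medians were -0.04 in Eed iKO-D and 0.12 in Ctrl-D. The contrast of members with other basal cells thus differed in content between the libraries, and that difference was not tested.

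Eed itself did not separate the members of the libraries. It had 153 UMIs (57.3 CPM) in Eed iKO-D and 719 UMIs (62.3 CPM) in Ctrl-D, a ratio of 0.920 (0.767 to 1.10). The gene lies at chr7:89954654-89980983 on the minus strand of mm10. Counts gathered from the 3' end can come from a transcript that still carries its last exons after a deletion upstream, so this level checks the label little. The other PRC2 core genes were close as well, with 71.1 CPM of the methyltransferase Ezh2 in Eed iKO-D and 87.3 CPM in Ctrl-D, and 86.1 and 74.3 CPM of Suz12. Ezh1, the alternative methyltransferase, had 25.8 CPM in Eed iKO-D and 15.3 CPM in Ctrl-D. Of 10 PRC2 genes 2 accessory subunits were past 2-fold, both higher. Jarid2, which recruits PRC2, had 938 CPM in members of Eed iKO-D and 169 CPM in those of Ctrl-D, a ratio of 5.54 (5.22 to 5.88), and Aebp2 had 206 and 75.7 CPM. Jarid2 also had 595 CPM in other basal cells of Eed iKO-D and 204 CPM in those of Ctrl-D, and outside the keratinocytes stood at 353 CPM in Eed iKO-D and 176 CPM in Ctrl-D.

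The genes with the greatest excess in members of Eed iKO-D included several that were high throughout that library. Camk1d, a calmodulin-dependent kinase, had 3006 CPM in Eed iKO-D and 259 CPM in Ctrl-D, and leukocyte-list cells had 5952 and 454 CPM. Nrg1, an ErbB ligand, had 2492 CPM in members of Eed iKO-D and 374 CPM in those of Ctrl-D, against 490 and 64.7 CPM in leukocyte-list cells. Twist1, a transcription factor of mesenchyme and of epithelial-mesenchymal transition, had 54.6 CPM in members of Eed iKO-D and 2.08 CPM in those of Ctrl-D. Before thinning it was found in 52 of 88 and 13 of 719 members, whose median depths were 29686 and 13633 UMIs. Its ratio was 26.3 (17.0 to 42.4), with 142 CPM in the fibroblast-list cells of Eed iKO-D and 171 CPM in those of Ctrl-D. Leukocyte-list cells had 3.50 CPM of Twist1 in Eed iKO-D and 0 CPM in Ctrl-D.

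Fabp4, low in members beside other basal cells of both libraries as given above, had 131 CPM in members of Eed iKO-D and 0.606 CPM in those of Ctrl-D, but 56.4% of its Eed iKO-D UMIs lay in 1 cell and the level without that cell was 58.0 CPM. Gsta4, a glutathione transferase for lipid aldehydes, had 125 CPM in Eed iKO-D, or 80.9 CPM without its top cell, and 7.88 CPM in Ctrl-D. Other genes at this end included ligands and receptors. Pdgfc, a platelet-derived growth factor, had 118 and 12.2 CPM in Eed iKO-D and Ctrl-D, Procr, the protein C receptor, 246 and 29.9 CPM, and the guidance ligand Slit1 82.7 and 7.79 CPM. Dio2, which activates thyroid hormone, had 92.1 CPM in Eed iKO-D and 7.97 CPM in Ctrl-D. The remaining 3 of the 12 genes named at this end were Pitpnc1, a lipid transfer protein (337 and 44.6 CPM), Galnt6, which starts O-glycosylation (59.1 and 4.68 CPM), and Airn (273 and 37.2 CPM). Airn is an imprinted noncoding RNA that lies antisense to Igf2r, and whether the counting used strand is not given in the sources used here.

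At the other end stood, beside Krt79, Lgr5 and interferon-response genes, Ly6d, a surface protein of committed keratinocytes, with 92.8 CPM in members of Eed iKO-D and 821 CPM in those of Ctrl-D. The skin chemokine Ccl27a had 58.8 CPM in Eed iKO-D and 444 CPM in Ctrl-D, under a symbol that several gene IDs share. Adgrl2, an adhesion receptor, had 15.3 and 121 CPM. The histone gene Hist1h2ap had 32.9 CPM in Eed iKO-D and 298 CPM in Ctrl-D, and the chitinase-like Chil4 had 18.7 and 178 CPM, with 76.0% of its Eed iKO-D UMIs in 1 cell. Stfa1, a stefin with near copies, had 15.3 and 319 CPM, with 65.9% of its Eed iKO-D UMIs in 1 cell.

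Genes for adhesion to the basement membrane were higher in RNA as a group in members of Eed iKO-D. Of 10 hemidesmosome and laminin-332 genes 6 were at least 2-fold higher and 0 lower, and their median log2 ratio was 1.09 beside 0.18 for all genes. Other basal cells differed likewise for the first gene named next, with 937 CPM of Lama3 in Eed iKO-D and 160 CPM in Ctrl-D. Lama3, the laminin alpha chain, had 470 CPM in Eed iKO-D and 109 CPM in Ctrl-D, a ratio of 4.30. Itga3, a laminin-binding integrin, had 175 CPM in Eed iKO-D and 41.5 CPM in Ctrl-D, and Itgb4, the hemidesmosomal beta subunit, 316 and 118 CPM. Of 18 interfollicular basal genes 8 were higher and 1 lower, with a median of 0.91. Fgfr3, a fibroblast growth factor receptor, had 121 CPM in Eed iKO-D and 37.2 CPM in Ctrl-D, and Thbs1, the matrix protein thrombospondin, 722 and 255 CPM. Trp63, the master regulator of basal identity, had 532 and 290 CPM, short of 2-fold.

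Among differentiation genes the suprabasal list was lower in Eed iKO-D, while the cornified envelope list was mixed and little measured. Of 13 suprabasal genes 0 were higher and 7 lower in members of Eed iKO-D, with a median of -1.39. Krt10 had 9.73 CPM in Eed iKO-D and 97.3 CPM in Ctrl-D, and Calml3, a calmodulin-like protein of differentiating epithelium, 10.9 and 75.3 CPM. The desmocollin Dsc1 had 0 UMIs in Eed iKO-D and 57 UMIs in Ctrl-D, at least 4.40-fold lower against the floor. Of 8 measured cornified envelope genes, which serve later differentiation, 3 were higher and 1 lower, with a median of 0.53. Of the 20 genes of this list 10 had 0 UMIs in members of Eed iKO-D. Its median ranged between -1.55 over cells with only Y-linked transcripts and 1.72 with Krt15 at 5 per 10000 or more. Tgm1, the transglutaminase that crosslinks the envelope, and its substrate Ivl each had 28 UMIs in members of Eed iKO-D, and 24 and 27 UMIs in those of Ctrl-D, ratios of 5.04 and 4.48. Wound and stress genes were mixed, with 4 of 11 higher and 2 lower. S100a8, an alarmin, had 38.2 CPM in members of Eed iKO-D and 6.50 CPM in those of Ctrl-D, and 1028 and 174 CPM outside the keratinocytes.

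**Figure D3:**
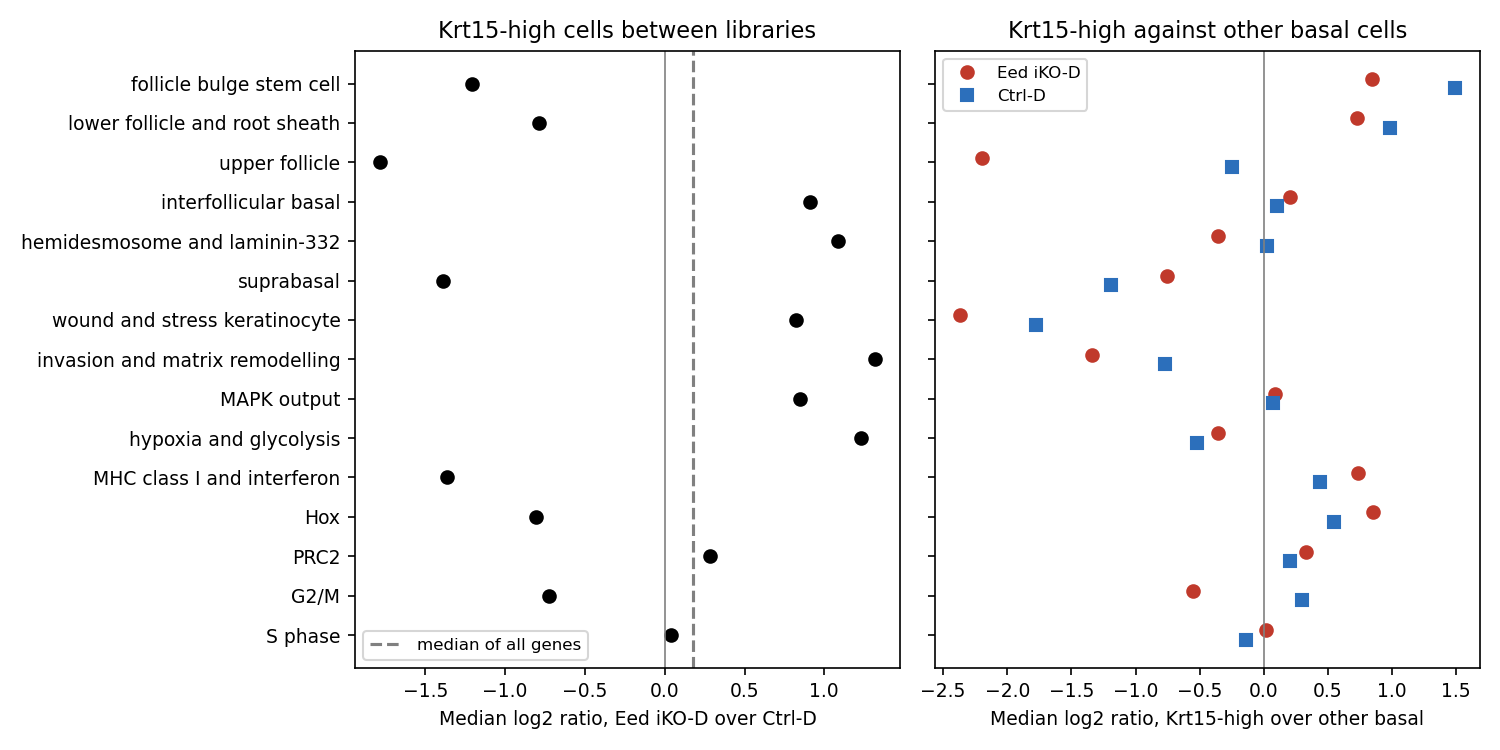
Median log2 ratio of each gene list, for Eed iKO-D over Ctrl-D members (left, dashed line at the median of all genes, 0.18) and for members over other basal keratinocytes within Eed iKO-D (red) and Ctrl-D (blue) (right); each point is the median of 1 list, with no error drawn. On the left invasion stands at 1.32 and upper follicle at -1.79, and on the right the bulge list is above 0 and the wound list below 0 in both libraries.

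Most hypoxia and invasion genes, and a smaller number of MAPK output genes, stood at least 2-fold higher in members of Eed iKO-D. Of 26 hypoxia and glycolysis genes 16 were at least 2-fold higher and 0 lower, with a median of 1.23. Vegfa, the angiogenic growth factor, had 239 CPM in Eed iKO-D and 39.8 CPM in Ctrl-D, and Bnip3, a mitophagy receptor, and Ndrg1, a stress-response gene, were each 5.45 times as high. The invasion list, with matrix proteases and their partners, had 14 of 22 genes past 2-fold upward and 1 downward in Eed iKO-D, with a median of 1.32. The collagenase Mmp13 had 34.8 CPM in Eed iKO-D and 4.07 CPM in Ctrl-D, with 63.4% of its Eed iKO-D UMIs in 1 cell. Of 21 MAPK output genes 8 were higher, 0 were lower and 13 were not past 2-fold, with a median of 0.85. Areg, an EGF receptor ligand, had 237 CPM in Eed iKO-D, 33.3% of it in 1 cell, and 73.3 CPM in Ctrl-D, and the ERK phosphatase gene Dusp6 had 271 and 93.8 CPM.

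Such differences were also found in the other basal cells, where Vegfa had 304 CPM in Eed iKO-D and 66.6 CPM in Ctrl-D and Areg 1017 and 261 CPM. Against other basal cells of the same library, 0 of 22 invasion genes were higher and 15 lower in members of Eed iKO-D (median -1.34), and 1 higher and 9 lower in those of Ctrl-D (median -0.77). Fibroblast transcripts, taken as a sum, differed in the same direction between the libraries. Of 6 measured fibroblast genes 3 were at least 2-fold higher and 1 lower in members of Eed iKO-D. The lower one was Dcn, at a log2 ratio of -1.93. The 8 fibroblast genes summed to 342 CPM in members of Eed iKO-D and 66.7 CPM in those of Ctrl-D, and to 29340 and 3181 CPM outside the keratinocytes, with 0 of the 8 at 0 UMIs in either library. Col1a1, the collagen that defines fibroblasts, had 136 CPM in members of Eed iKO-D and 3.90 CPM in those of Ctrl-D. Before thinning it was found in 85 of 88 and 19 of 719 members, those of Eed iKO-D being the deeper. The part of such RNA in the invasion genes, which fibroblasts also express, was not tested.

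Genes under PRC2 control elsewhere showed no single direction. Of 20 Hox genes 1 was at least 2-fold higher and 8 lower in members of Eed iKO-D, with a median of -0.81. Hoxa9 had 0 UMIs in Eed iKO-D and 56 UMIs in Ctrl-D, at least 4.32-fold lower against the floor, and Hoxb2 had 3.74 and 20.8 CPM. Hoxa3, the one Hox gene in the other direction and named after its value was seen, had 19.8 CPM in Eed iKO-D and 5.37 CPM in Ctrl-D. Of 35 transcription factors of other lineages 7 reached the count minimum, 5 of them higher and 2 lower, with a median of 2.78 that turned to -0.61 after thinning and -0.50 over Xist-only cells. The higher ones were led by Twist1 and by Pitx1, a hindlimb factor with 34.4 CPM in 12 cells of Eed iKO-D, 42.4% of it in 1 cell, and 0.953 CPM in Ctrl-D. Of 7 cell cycle inhibitor genes 0 were past 2-fold, and Cdkn2a, a classical PRC2 target, had 20.2 CPM in Eed iKO-D and 30.7 CPM in Ctrl-D.

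MHC class I and interferon-response genes also stood on the low side. Of 20 measured, 0 were at least 2-fold higher and 14 lower in members of Eed iKO-D, with a median of -1.36. B2m, the shared light chain of MHC class I, had 472 CPM in Eed iKO-D and 1629 CPM in Ctrl-D, a ratio of 0.290. The heavy chain genes H2-K1 and H2-D1, which resemble each other, had 432 and 641 CPM in Eed iKO-D and 1048 and 1693 CPM in Ctrl-D. Psmb9, a subunit of the immunoproteasome, had 40.8 CPM in Eed iKO-D and 187 CPM in Ctrl-D. Isg15, a ubiquitin-like interferon product, had 8 UMIs (2.99 CPM) in Eed iKO-D and 1303 UMIs (113 CPM) in Ctrl-D, and Bst2, the antiviral tetherin, had 2.25 and 56.6 CPM. In leukocyte-list cells Isg15 was near level, at 110 CPM in Eed iKO-D and 97.7 CPM in Ctrl-D. In fibroblast-list cells it had 38.2 CPM in Eed iKO-D and 105 CPM in Ctrl-D. The list was also lower in Eed iKO-D beyond the members. It summed to 1571 CPM in other basal cells of Eed iKO-D and 5620 CPM in those of Ctrl-D. Outside the keratinocytes it summed to 2851 and 5258 CPM.

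Part of this set varied with the cells' sex-linked transcripts within Ctrl-D. In Eed iKO-D members with only Xist or only Y-linked transcripts, 16 and 17 cells, Isg15 stood at 3.84 and 3.51 CPM, and in the 462 and 148 such members of Ctrl-D at 141 and 12.2 CPM. Ifi27l2a, another interferon-induced gene, stood at 5.75 and 5.26 CPM in Eed iKO-D and 408 and 70.9 CPM in Ctrl-D. B2m did not follow that split, with 451 and 660 CPM in Eed iKO-D and 1618 and 1657 CPM in Ctrl-D. The median of the list between the libraries was -1.86 over the Xist-only cells and -0.49 over the Y-only cells. Cells of one class may come from few animals, and how many each class holds is not given in the labels. Sostdc1 differed by class as well, with 953 and 474 CPM in Eed iKO-D and 535 and 142 CPM in Ctrl-D, and Tslp stood at 24.9 and 395 CPM in Eed iKO-D and 254 and 13.5 CPM in Ctrl-D.

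**Figure D4:**
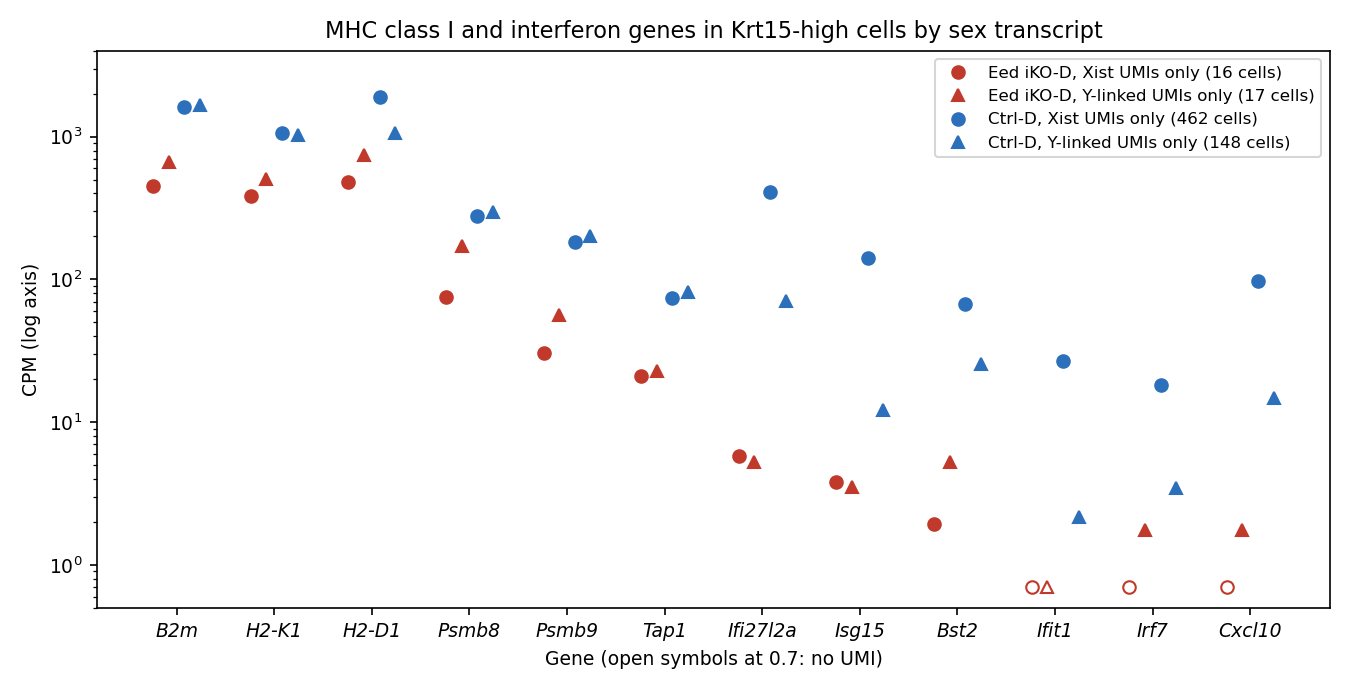
Levels of MHC class I and interferon-response genes (CPM, log axis) in members with only Xist or only Y-linked transcripts, for Eed iKO-D (16 and 17 cells) and Ctrl-D (462 and 148 cells); each point is a summed level with no error drawn, and open symbols mark 0 UMIs. Isg15 stands at 3.84 and 3.51 CPM in Eed iKO-D and at 141 and 12.2 CPM in Ctrl-D, while B2m stands at 1618 and 1657 CPM in the Ctrl-D pools.

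Clustering the 807 members gave 6 sub-clusters that largely separated the libraries, and their leading genes describe them without a test. Sub-cluster 0 held 80 cells of Eed iKO-D and 0 of Ctrl-D, so it cannot be told apart from the library itself. Its leading genes were Prl8a9, Fabp4, Ankrd33b, Pitx1, Twist1 and Tnfaip6, and 1 cell held 87.5% of the Prl8a9 UMIs and 78.4% of those of Tnfaip6. Sub-cluster 1 held 4 cells of Eed iKO-D and 261 of Ctrl-D and carried the follicle genes, led by Krt79, Defb6, Cst6, Csmd1, Wfdc3 and Bmp6. Its Lhx2 stood at 72.5 CPM, Lgr5 at 172 CPM, Ptn at 665 CPM, Sox9 at 424 CPM and Krt17 at 2979 CPM, so bulge and upper follicle genes lay in the same sub-cluster. Of the 719 Ctrl-D members thinned to 5000 UMIs, 77 had Lhx2, 131 had Lgr5 and 43 had both. Krt79 was found in 74, and 10 had both Lhx2 and Krt79. Neither overlap was tested.

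**Figure D5:**
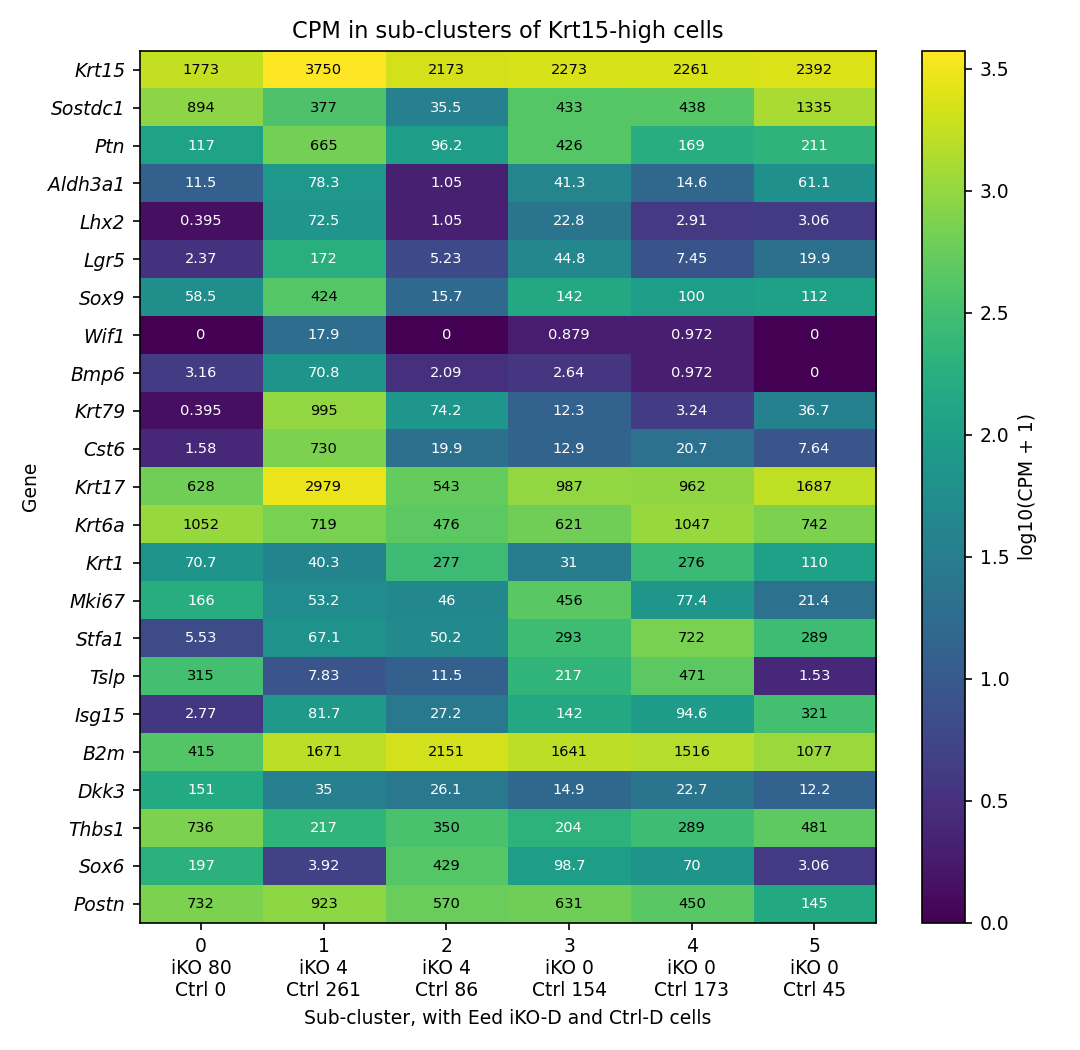
Level of each gene (rows, printed in CPM, colour on the log10 of CPM + 1) in each sub-cluster of the 807 members (columns, with their cells of Eed iKO-D and of Ctrl-D). Sub-cluster 0 holds 80 cells, all of Eed iKO-D, and sub-cluster 1, with 261 cells of Ctrl-D and 4 of Eed iKO-D, has Lhx2 at 72.5 CPM.

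The 4 remaining sub-clusters were nearly all Ctrl-D. Sub-cluster 2, with 4 cells of Eed iKO-D and 86 of Ctrl-D, was led by Clec3b, Pyy, Serping1, Apod and Gpx3, but 1 cell for each gene held 99.2% of the Clec3b UMIs, 56.7% of those of Pyy, 99.1% of those of Serping1, 100% of those of Apod and 99.0% of those of Gpx3. Genes spread over its cells, named after their values were seen, were Sox6 in 74, Sema3d in 56 and Igfbp3 in 46 cells, and its Sostdc1 stood at 35.5 CPM. Sub-cluster 3, with 0 and 154 cells, was led by histone and mitotic genes such as Hist1h2ap, Nusap1 and Spc25, and 44.2% of its cells passed the cycling cut given next. Sub-cluster 4, with 0 and 173 cells, was led by the inflammatory genes Ccl8, Il19, Chil4, Csta3, Stfa1 and Il24, and 135 of its cells had only Xist and 12 only Y-linked transcripts. Sub-cluster 5, with 0 and 45 cells, was led by Ifi44, Alpk1, Rgcc, Ccl20 and Adgrl3, had Isg15 at 321 CPM and Sostdc1 at 1335 CPM, and held 43 Xist-only cells and 0 Y-only cells.

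A cell was counted as cycling when S or G2/M genes made over 1% of its UMIs after thinning. By that cut 4 of 88 members of Eed iKO-D, 4.55% (1.25 to 11.2%), and 69 of 719 of Ctrl-D, 9.60% (7.54 to 12.0%), were cycling, with overlapping intervals. Among other basal cells the shares were 1.86% in Eed iKO-D and 5.46% in Ctrl-D. Before thinning the members' shares were 4.55% and 10.0%. Of 50 G2/M genes 0 were at least 2-fold higher and 19 lower in members of Eed iKO-D, with a median of -0.72, while 37 S phase genes had a median of 0.04.

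Markers of other cell types were low in the members beside cells outside the keratinocyte gate. The 12 leukocyte genes summed to 72.2 CPM in members of Eed iKO-D and 93.4 CPM in those of Ctrl-D, against 2759 and 1307 CPM outside. Ptprc, which defines leukocytes, had 1.87 CPM in Eed iKO-D and 1.91 CPM in Ctrl-D, and 2 of the 12 genes were at 0 UMIs in Eed iKO-D and 0 in Ctrl-D. The 8 endothelial and mural genes summed to 15.3 and 8.31 CPM in members and 639 and 91.5 CPM outside, with 1 and 3 genes at 0 UMIs in Eed iKO-D and Ctrl-D. The 6 melanocyte genes summed to 15.0 CPM in members of Eed iKO-D, with 3 genes at 0 UMIs, and 32.5 CPM in those of Ctrl-D, with 0 genes at 0.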

How the data were processed

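Droplet libraries were deposited as UMI counts per gene and barcode. The authors processed them with Cell Ranger on mm10: version 8.0 per the submitters' processing notes, 2.1.0 per the labels' protocols and 7.1.0 per the file headers, a conflict that could not be settled here. Counts were summed over the members of a library, scaled to CPM of all their UMIs and compared as ratios with exact conditional binomial intervals at 95%. A gene was measured at 20 UMIs or more over both sides, and a call was a 2-fold difference after adding 0.5 UMIs. For a gene with 0 UMIs the fold is a bound, computed with 3 UMIs for the whole group. Shares carry exact Clopper-Pearson intervals. Cells were thinned to 5000 UMIs with a fixed seed. Numbers of cells that held a gene, where thinning is not named, are from before thinning.

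The members and gene lists were chosen with earlier results of these data known. Genes named were the 12 highest and 12 lowest between libraries, the 12 highest and 8 lowest against other basal cells, the members of the follicle and sebaceous lists, up to 4 of the largest differences in each other list, and the 6 leading genes of a sub-cluster. Ranks were taken after adding 5 CPM, the higher side needed 50 UMIs and 50 CPM, and genes over 3 times as high outside the keratinocyte gate of that library were left out, as were mitochondrial, ribosomal, clone-named and sex-linked genes. Further genes were named after their values were seen, and some genes are not reported here.

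Sub-clusters came from Leiden clustering at resolution 0.5 on 2000 variable genes, 30 principal components and 15 neighbours (scanpy 1.11.5, Python 3.11.15). Doublets were scored with scrublet and kept. In counts simulated for 12515 genes, 95.8% of intervals held the true ratio and 2.11% of unchanged genes passed 2-fold. Of genes simulated with a true 2-fold difference, 49% passed it. The intervals cover counting error only, so this coverage cannot tell how they hold under variation between cells, animals or libraries. Alternatives changed one gate, filter, scaling or pool at a time.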

Additional observations from a re-analysis of the deposited data

Results flagged for a closer look

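Members and other basal keratinocytes stood in opposite orders in the 2 libraries for 5 of the follicle and lineage genes. These differences between the libraries were not tested. Wif1 had a log2 ratio of members to other basal cells of -1.34 in Eed iKO-D and 2.34 in Ctrl-D, but its members in Eed iKO-D held 0 UMIs, so that the -1.34 depends on the 0.5 UMIs added and does not show the gene lower there against a floor of 3 UMIs (1.12 CPM). The other 4 were past 2-fold in both libraries. Foxc1 stood at -2.45 in Eed iKO-D and 1.39 in Ctrl-D, Lgr6 at -2.12 and 1.61, and Tcf7l1, a Wnt-pathway repressor of bulge cells, at -1.56 and 1.89. Twist1 went the other way, with 1.33 in Eed iKO-D and -1.30 in Ctrl-D. Over all measured genes 255 of 15284 (1.67%) were past 2-fold in opposite directions after adding 0.5 UMIs.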

How the results depend on the processing

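Members were 0.815% of kept and 8.02% of basal cells in Eed iKO-D, and 14.7% and 30.1% in Ctrl-D, with Krt15 at 5 per 10000 or more. At 20 or more the shares were 0.112% and 1.10% in Eed iKO-D and 4.92% and 10.1% in Ctrl-D, with 521 genes higher in members of both libraries and 0% cycling in Eed iKO-D. At 10000 UMIs or more, Ctrl-D stood at 6.99% and 16.8%, with 12.5% cycling. With Gm42418 at 5% at most, Eed iKO-D stood at 0.223% and 2.82%. With Krt5 and Krt14 at 160 or more, the shares were 0.144% and 1.98% in Eed iKO-D and 4.92% and 14.2% in Ctrl-D. Cycling at over 2% was 0% in Eed iKO-D and 0.695% in Ctrl-D.

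Genes higher and lower in members of Eed iKO-D numbered 1215 and 1861 with median-of-ratios scaling, 4797 and 2025 with no count minimum, 1098 and 673 at 100 UMIs, and 3706 and 2412 at 1.5-fold. Genes higher and lower in members of both libraries numbered 115 and 285 as means of per-cell CPM, 135 and 241 after thinning, 104 and 279 at 100 UMIs and 967 and 860 at 1.5-fold, and 1484 were higher with no minimum. Of single genes between libraries, 611 of 626 values past 2-fold stayed past it in the same direction over 19 settings, and of list medians 215 of 247. Lhx2 ranged between log2 -6.76 and -2.56, Lgr5 between -6.39 and -1.60, Krt79 between -9.24 and -4.67, and Sostdc1 between 0.03 and 1.74. The bulge median ranged between -1.66 and -0.78, lower follicle between -1.30 and 0.15, hypoxia between 0.73 and 1.54, and G2/M between -1.96 and 0.03. Of single genes in members against other basal cells, 628 of 640 values stayed past 2-fold in the same direction over 16 settings. Those that fell short in Ctrl-D included Tslp (log2 0.29 with Krt15 at 20) and Dapl1 (0.79 with Krt15 at 5). Bnc2 (0.40) and Nfib (0.72) fell short there with Krt5 and Krt14 at 160. Reversed were the simple epithelial keratin list (0.74 with Krt15 at 5), Sprr1a (0.35 with Krt5 and Krt14 at 160 and 0.22 over Xist-only cells), the melanocyte list (0.27 with Krt5 and Krt14 at 160) and the list of other-lineage factors (-0.61 after thinning and -0.50 over Xist-only cells). The cause was not tested. Leaving out cells with over 10 UMIs of other lineages per 10000, a setting chosen after seeing the data, left members at 3.06% of kept cells in Eed iKO-D and 12.2% in Ctrl-D. Leaving out cells with over 2 such UMIs kept 2 cells of Eed iKO-D and was given no value. No paired analysis was possible because each group had 1 library.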
